A study of Mus musculus with 8 samples.

Results

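The family described here consists of the nuclear genes for the subunits of mitochondrial complex I and for the assembly factors that carry the Ndufaf name. Members were all genes whose symbol begins with Nduf, followed by a, b, c, s, v or af and a number, without a pseudogene suffix. The deposited files list 52636 genes and hold 45 such members, 37 structural subunits and 8 assembly factors. All 45 passed the filter on low counts, and 15562 genes were tested in all. The Nduf symbols outside the rule were Ndufab1, the mitochondrial acyl carrier protein, and a pseudogene of it. The rule itself uses names, but the family was selected on its measured changes: it was proposed with results of the same genotype comparison in view, so its changes, adjusted p-values and counts are given as a description and not as independent evidence.

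RNA sequencing of whole liver was done on 8 samples from C57BL/6 mice, all 8 weeks old. The 4 WT samples have the genotype CTCF fl/fl Albcre-, with floxed Ctcf and no Cre, and the 4 cKO samples are CTCF fl/fl Albcre+, with the same floxed alleles and Cre under the albumin promoter, a hepatocyte promoter. Floxed Ctcf is thus shared by both groups, and no sample carried Cre without floxed Ctcf, so that Cre itself and loss of CTCF, a zinc finger protein that organises chromatin loops, cannot be told apart. Libraries held 43.9 to 57.3 M assigned counts. The targeted gene, Ctcf, stood at 16.5 ± 0.41 CPM (counts scaled to library size with TMM factors) over the WT libraries and 12.2 ± 0.946 CPM over the cKO libraries (mean ± SD; n = 4 per genotype). The groups did not overlap, which gave p = 0.0286 by exact permutation, two-sided, the lowest value possible with 4 against 4. In the test of all genes given below, Ctcf was called lower. It was not called in 2 of 20 alternative analyses, both on length-scaled abundance (TPM).

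Complex I oxidises NADH, passes the electrons through flavin and iron-sulphur clusters to ubiquinone, and pumps protons across the inner mitochondrial membrane. Its peripheral arm holds the NADH and ubiquinone sites, and its membrane arm holds the proton channels. Core subunits carry the catalysis; those of the peripheral arm are nuclear genes of the Ndufs and Ndufv series, and those of the membrane arm are encoded by mitochondrial DNA. Accessory subunits surround the core and stabilise the enzyme. Assembly factors join and modify intermediates during its construction and are absent from the finished enzyme. Hepatocytes are rich in mitochondria and express all parts of the respiratory chain.

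Levels of the members, compared per transcript length as TPM (RSEM's length-scaled transcript abundance), spanned a wide range. In WT liver Ndufa4 was highest at 1156 ± 28.2 TPM, followed by Ndufa3 at 644 ± 39.3 TPM, Ndufb9 at 555 ± 34 TPM and Ndufa6 at 496 ± 47 TPM (mean ± SD, n = 4 each, as for all means below). The lowest levels were those of Ndufaf7 at 5.58 ± 0.129 TPM, Ndufa4l2 at 3.83 ± 1.12 TPM and Ndufaf5 at 2.82 ± 0.292 TPM. All 8 assembly factors stood among the lowest levels, from 2.82 TPM to 40.5 ± 2.63 TPM for Ndufaf8, and the structural subunits Ndufa11, at 35 ± 2.29 TPM, and Ndufa4l2 lay among them. When members were ordered by WT level, 31 of the 44 neighbouring pairs had overlapping WT libraries. The 13 pairs that did not overlap included Ndufa4 above Ndufa3, Ndufa3 above Ndufb9, and each step from Ndufaf2 through Ndufaf4, Ndufaf6 and Ndufaf7 to Ndufa4l2. Summed over each class, WT libraries held 9672 ± 480.1 TPM of structural subunits and 147 ± 3.32 TPM of assembly factors.

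**Figure D1:**
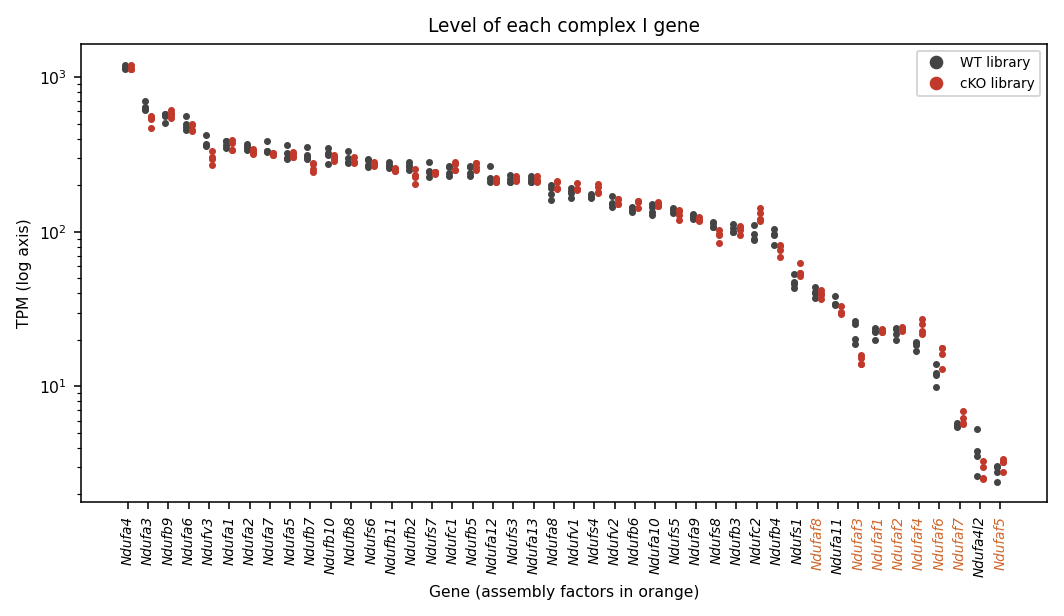
TPM of each of 44 members on a log axis, 1 dot per library (4 WT, dark; 4 cKO, red), ordered by WT mean; assembly factors are written in orange. Ndufa4 is highest at 1156 TPM in WT, and the assembly factors lie at 40.5 TPM and below.

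Against WT, 20 of the 37 structural subunits were lower and 1 was higher in cKO, at an adjusted p under 0.05 in edgeR's quasi-likelihood test. Among all 15562 genes tested, 14.9% were lower and 15.2% higher, 30.1% in all; since the comparison was in view when the family was proposed, nothing is read from the difference. The falls were modest. The median log2 change of the structural subunits was -0.21, with a range of -0.47 to 0.24, beside a median of -0.01 for all genes. In 22 subunits every cKO library lay below every WT library, and in 1, Ndufs1, every cKO library lay above; over all genes 15.6% lay below and 15% above in this way. The summed level fell into separate ranges, from 4463 to 4895 CPM in WT and from 3973 to 4203 CPM in cKO, with means of 4614 ± 197 and 4044 ± 107 CPM. With TMM factors the sum over all genes tested separated too, at 1027580 to 1043905 CPM in WT and 942033 to 977196 CPM in cKO. The count of lower subunits dropped when single libraries were left out, as did that of all genes. It was 12 without WT replicate 1 or without cKO replicate 3, where 11.6% and 10.4% of all genes were lower. It was 13 without cKO replicate 1 or cKO replicate 4, where 12.9% and 10.3% were lower. With library size alone, 8 subunits were lower and 2 higher (1318 and 3604 of all genes). In limma on log2(TPM + 1), with another test, unit and filter, 5 were lower and 1 higher (746 and 3174 of 11651 genes).

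**Figure D2:**
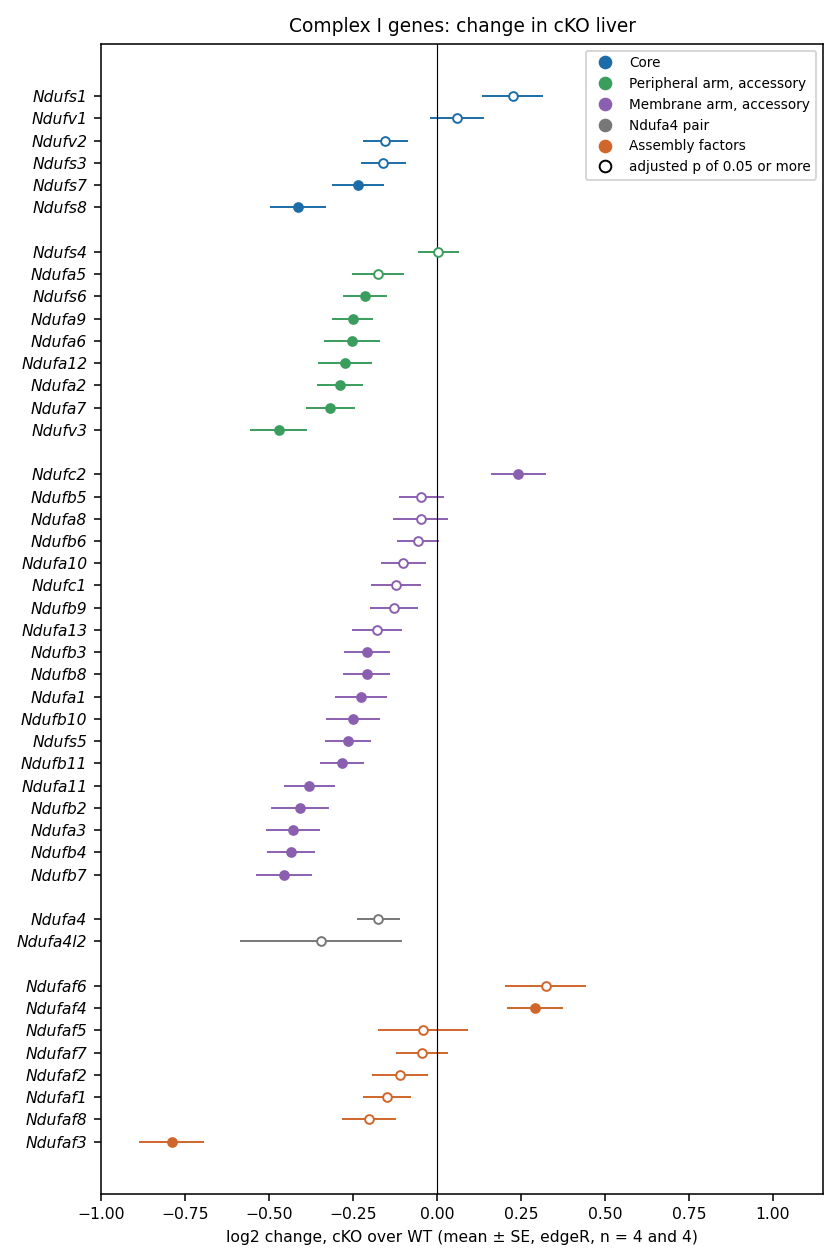
Log2 change in cKO against WT for 44 members, by role, as the edgeR estimate ± SE (4 WT and 4 cKO libraries); filled points have an adjusted p under 0.05. Most structural subunits lie left of 0, Ndufc2 lies right of 0 among the filled points, and Ndufaf3 is farthest left at -0.79.

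The core subunits of the peripheral arm were mixed: 2 of 7 were lower, 0 were higher, and the median log2 change was -0.15. Ndufs8 (chr19:3908863-3912774, mm10, ENSMUSG00000059734), which carries iron-sulphur clusters close to the ubiquinone site, read 87.1, 79.5, 86.4 and 80.2 CPM in WT replicates 1 to 4 and 65, 70.1, 60.9 and 54.1 CPM in cKO replicates 1 to 4. All 4 cKO libraries lay below all 4 WT libraries. Its log2 change of -0.41 had an SE of 0.08 and an edgeR adjusted p of 0.00381, and the adjusted p stayed below 0.05 in all 20 alternative analyses. Ndufs7, which holds the last iron-sulphur cluster before ubiquinone, read 154, 131, 125 and 136 CPM in WT and 119, 121, 113 and 111 CPM in cKO. Here too the groups did not overlap, and the log2 change was -0.24 (SE 0.08, edgeR adjusted p = 0.0364). That call was lost in 12 of the 20 alternatives, including each fit that omitted WT replicate 1, WT replicate 2 or any cKO library, where adjusted p ran from 0.0548 to 0.1.

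No other core subunit passed the test. Ndufs3, part of the ubiquinone-binding module, had a log2 difference of -0.16 (edgeR adjusted p = 0.0876), and Ndufv2, an iron-sulphur subunit of the NADH-binding module, of -0.15 (edgeR adjusted p = 0.106); in both, the cKO libraries lay below the WT libraries. Ndufv1, which binds NADH and flavin, had a log2 difference of 0.06 (edgeR adjusted p = 0.605). For Ndufs1, the largest iron-sulphur subunit of the NADH-binding module, the WT libraries read 78, 73.8, 74 and 80.6 CPM and the cKO libraries 81.2, 83.5, 85.7 and 108 CPM. The groups did not overlap, yet the log2 change of 0.23 (SE 0.09) had an edgeR adjusted p of 0.081, and cKO replicate 4 stood well above the other 3.

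Accessory subunits of the peripheral arm fell in 7 of 9 cases, with a median log2 change of -0.25. The count was 4 without WT replicate 1, cKO replicate 3 or cKO replicate 4. It was 2 with library size alone and 1 on log2(TPM + 1). The largest fall was that of Ndufv3 (chr17:31520115-31531326, mm10, ENSMUSG00000024038), an accessory subunit of the NADH-binding module. It read 141, 123, 127 and 121 CPM in WT and 101, 98, 88.3 and 81.4 CPM in cKO. No cKO library reached the lowest WT library, and the log2 change was -0.47 (SE 0.08, edgeR adjusted p = 0.00224). The other 6 that fell were Ndufa2, Ndufa6, Ndufa7, Ndufa9, Ndufa12 and Ndufs6, with log2 changes from -0.32 to -0.21. Ndufa5, at -0.18, and Ndufs4, at 0.00, did not pass.

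Accessory subunits of the membrane arm fell in 11 of 19 cases and rose in 1, with a median log2 change of -0.21. The count of falls was 7 without WT replicate 1, cKO replicate 1 or cKO replicate 3. It was 5 with library size alone and 3 on log2(TPM + 1). Ndufb7 (chr8:83566758-83571623, mm10, ENSMUSG00000033938), which faces the intermembrane space, read 155, 129, 136 and 137 CPM in WT and 107, 111, 92.6 and 95.3 CPM in cKO. Its groups did not overlap, and it fell by 0.45 on the log2 scale (SE 0.08, edgeR adjusted p = 0.00256). Ndufa3 (chr7:3617347-3620165, mm10, ENSMUSG00000035674), a small subunit of the membrane arm, read 153, 128, 141 and 139 CPM in WT and 106, 112, 106 and 93.1 CPM in cKO. Again every cKO library was below every WT library, with a log2 change of -0.43 (SE 0.08, edgeR adjusted p = 0.00258). Ndufb4 (chr16:37647602-37654368, mm10, ENSMUSG00000022820), in the distal part of the membrane arm, read 55.6, 50.5, 51.6 and 46.6 CPM in WT and 37.2, 40.3, 38.4 and 35.5 CPM in cKO. It fell by 0.43 on the log2 scale (SE 0.07, edgeR adjusted p = 0.00139), the smallest adjusted p among the structural subunits, and its groups did not overlap. The other 8 that fell, Ndufa1, Ndufa11, Ndufb2, Ndufb3, Ndufb8, Ndufb10, Ndufb11 and Ndufs5, had log2 changes from -0.41 to -0.21. Of the 5 subunits Ndufs8, Ndufv3, Ndufb7, Ndufa3 and Ndufb4, each kept an adjusted p under 0.05 in all 20 alternatives, those on TPM included.

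Ndufc2 (chr7:97400003-97407800, mm10, ENSMUSG00000030647), an accessory subunit of the membrane arm, was the structural subunit that rose. It read 42.8, 41, 42.4 and 51.4 CPM in WT and 48.7, 52.2, 52.7 and 56.4 CPM in cKO, so that WT replicate 4 overlapped the cKO range. The log2 change was 0.24 (SE 0.08, edgeR adjusted p = 0.0429). This call was lost in 7 of 20 alternatives, with adjusted p up to 0.119: with an offset for effective length, and without WT replicate 1, 2 or 3 or cKO replicate 2, 3 or 4. Its partner in the same series, Ndufc1, had a log2 change of -0.12 and did not pass.

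Ndufa4 and Ndufa4l2 carry complex I names, although NDUFA4 was later assigned in human cells to complex IV and NDUFA4L2 is known as a hypoxia-induced relative. Ndufa4 (chr6:11900372-11907450, mm10, ENSMUSG00000029632) read 409, 383, 390.1 and 401 CPM in WT and 343, 359, 356 and 344 CPM in cKO. Its groups did not overlap, but the log2 change of -0.17 (SE 0.06) had an edgeR adjusted p of 0.0574, and DESeq2 gave an adjusted p of 0.0077. Ndufa4l2 was the least abundant structural gene, with 1.25 to 2.73 CPM in WT and 1.19 to 1.91 CPM in cKO, a log2 change of -0.34 (SE 0.24) and an edgeR adjusted p of 0.3. Without the pair, 20 of 35 structural subunits were lower and 1 was higher.

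Of the 8 assembly factors, 1 was lower and 1 was higher, beside 14.9% and 15.2% of all genes. With library size alone 2 were higher, beside 23.2% of all genes. On log2(TPM + 0.1) and log2(TPM + 1) 2 were higher, beside 27.3% and 27.2%. In the main analysis the estimate was negative in 6 and positive in 2. The median log2 change was -0.08, with a range of -0.79 to 0.32, wider than that of the structural subunits. Ndufaf3 (chr9:108565587-108567436, mm10, ENSMUSG00000070283) and Ndufaf4 (chr4:24898083-24905001, mm10, ENSMUSG00000028261) changed in opposite directions, although in human cells their products bind each other and act together early, on the ubiquinone-binding module. The promoter sequences of members that moved are shown first, since the transcripts of this pair diverged. They are RefSeq sequence on GRCm38.p6, the assembly of mm10, read 5′ to 3′ on the gene's strand and ending at the base before the annotated start. Capitals mark matches to the NRF1, ERR and CTCF letters given further on.
Between the Ndufaf3 and Dalrd3 records, chr9:108567437-108567483, minus strand: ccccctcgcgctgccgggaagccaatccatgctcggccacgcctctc
Ndufaf4, chr4:24897833-24898082, plus strand: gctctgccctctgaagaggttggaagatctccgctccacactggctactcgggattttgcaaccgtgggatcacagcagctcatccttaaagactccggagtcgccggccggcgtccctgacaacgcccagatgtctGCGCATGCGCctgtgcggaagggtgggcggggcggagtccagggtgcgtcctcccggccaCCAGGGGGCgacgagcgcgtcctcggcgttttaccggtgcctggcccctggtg
Ndufb4, chr16:37654369-37654618, minus strand: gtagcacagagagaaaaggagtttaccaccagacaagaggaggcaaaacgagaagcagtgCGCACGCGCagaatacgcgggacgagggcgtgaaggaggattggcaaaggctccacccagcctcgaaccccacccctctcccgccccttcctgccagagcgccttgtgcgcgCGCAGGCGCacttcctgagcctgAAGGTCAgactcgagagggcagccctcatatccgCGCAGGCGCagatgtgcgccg
Ndufc2, chr7:97399753-97400002, plus strand: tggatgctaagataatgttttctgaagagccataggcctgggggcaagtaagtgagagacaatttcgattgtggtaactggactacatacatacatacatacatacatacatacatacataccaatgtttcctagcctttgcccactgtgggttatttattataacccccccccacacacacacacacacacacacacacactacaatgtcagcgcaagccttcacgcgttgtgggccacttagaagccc

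Ndufaf3 read 19.1, 13.9, 17.2 and 16.1 CPM in WT and 9.59, 9.84, 9.28 and 9.63 CPM in cKO. The cKO libraries lay close together and far below the lowest WT library. The log2 change was -0.79 (SE 0.10; adjusted p = 0.000218 in edgeR), and cKO stood at 57.9% of WT, the largest change of any member. It kept an adjusted p under 0.05 in all 20 alternatives, with log2 changes from -0.87 to -0.58.

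The gene Dalrd3 lies 47 bases from Ndufaf3, and the short stretch between both records is the first sequence above. Dalrd3 was looked up after the fall of Ndufaf3 had been seen. It read 52.3, 48.2, 52.5 and 43.7 CPM in WT and 37.7, 37.4, 30.3 and 31.5 CPM in cKO, again without overlap. Its log2 change of -0.52 had an SE of 0.09 and an edgeR adjusted p of 0.00184. Impdh2, 9 bases beyond the other end of Ndufaf3, had a log2 difference of -0.15 (edgeR adjusted p = 0.136), and Wdr6, which overlaps Dalrd3, of -0.03. Counts of Dalrd3, Impdh2 and Wdr6 were divided between genes in every library, whereas those of Ndufaf3 are described below with the other members.

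Ndufaf4 read 23.8, 25.5, 23.3 and 27.1 CPM in WT and 27.1, 34, 31.5 and 29.5 CPM in cKO. The groups touched at WT replicate 4 and cKO replicate 1. The log2 change was 0.29 (SE 0.08, edgeR adjusted p = 0.0197). The call was lost with an offset for effective length (adjusted p = 0.0734), without WT replicate 1 (0.0539) and without WT replicate 3 (0.0631). A predicted gene, Gm46848, overlaps the start of Ndufaf4 and its upstream window in RefSeq.

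The other 6 assembly factors did not pass. Ndufaf6, which in human cells acts in early assembly, read 6.41, 8.38, 8.32 and 8.76 CPM in WT and 9.94, 11.5, 10 and 8.49 CPM in cKO. Its log2 change of 0.32 (SE 0.12) was the highest of any member, with an edgeR adjusted p of 0.0604 and passing values in 8 of 20 alternatives. Ndufaf8, the partner of NDUFAF5 in human cells, read 13.3, 12.4, 13.1 and 14.9 CPM in WT and 11.9, 12.2, 11.3 and 11.3 CPM in cKO. Its groups did not overlap, and its log2 change was -0.20 (edgeR adjusted p = 0.0738). Ndufaf1, which works with Ecsit on the membrane arm, read 22.1, 23.9, 25.5 and 26.1 CPM in WT and 23.1, 22.1, 21.3 and 21.6 CPM in cKO, with a log2 change of -0.15 (edgeR adjusted p = 0.133).

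Ndufaf2, a relative of Ndufa12 that acts late in assembly, had a log2 difference of -0.11 (edgeR adjusted p = 0.351). Ndufaf7 and Ndufaf5 are known from human cells to modify arginines of core subunits. Ndufaf7, the methyltransferase, had a log2 difference of -0.04 (edgeR adjusted p = 0.705), and its WT libraries ran from 10.9 to 11.9 CPM. Ndufaf5, the hydroxylase, read 2.29 to 2.83 CPM in WT and 2.28 to 2.73 CPM in cKO, with a log2 change of -0.04 (edgeR adjusted p = 0.84). In Ndufaf1, Ndufaf2, Ndufaf5 and Ndufaf7 the sign of these small differences was positive on log2(TPM + 1).

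**Figure D3:**
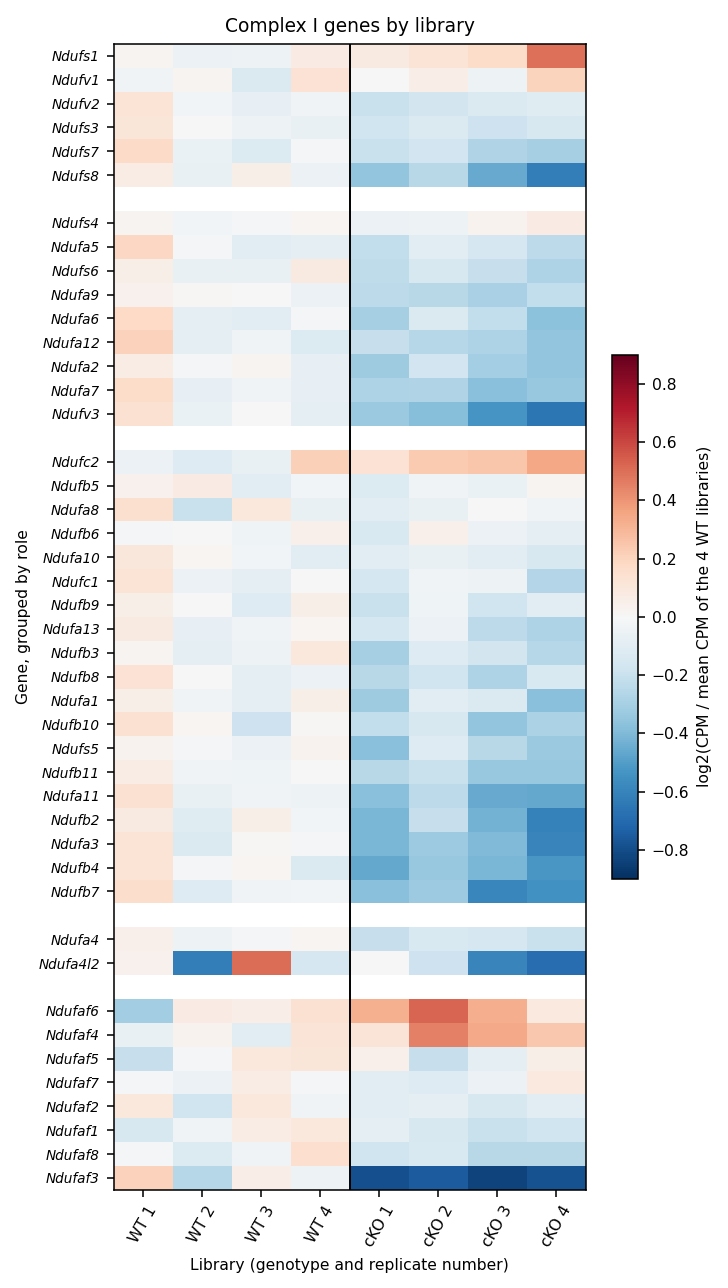
Log2 ratio of the CPM in each library to the mean of the 4 WT libraries, for 44 members (rows, grouped as core, peripheral accessory, membrane accessory, the Ndufa4 pair and assembly factors) and library (columns). Blue is below and red above the WT mean. The cKO columns are mostly blue in the structural rows, and Ndufaf3 is the darkest blue row while Ndufaf4 and Ndufaf6 are red.

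Summed levels of the assembly factors overlapped between genotypes. Their WT libraries summed to 107 to 117 CPM and their cKO libraries to 105 to 112 CPM, with means of 112 ± 4.61 and 107 ± 3.56 CPM. The cKO mean was 95.8% of WT for assembly factors and 87.6% for structural subunits, beside 92.9% for the sum over all genes tested. As a percentage of the structural sum in the same library, the assembly factor sum was 2.24, 2.38, 2.54 and 2.55 in WT and 2.63, 2.67, 2.68 and 2.61 in cKO. Every cKO library lay above every WT library in this ratio of CPM, with means of 2.43 ± 0.149% and 2.65 ± 0.0315%. In TPM the same ratio ran from 1.42 to 1.60% in WT and from 1.57 to 1.66% in cKO, and the groups overlapped. No test of the difference between the classes is given, because the members were chosen with this comparison in view.

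In TPM the structural sum did not separate the genotypes. WT libraries summed to 10364, 9480.5, 9262 and 9583 TPM and cKO libraries to 9135, 9429, 9512 and 9230.3 TPM. The means were 9672 ± 480.1 TPM in WT and 9327 ± 174 TPM in cKO, and WT replicate 1 was highest. Assembly factors summed to 147 ± 3.32 TPM in WT and 150.2 ± 5.42 TPM in cKO. On log2(TPM + 1) the median change of all genes moved to 0.12 and that of the structural subunits to -0.045. Relative to the median of all genes, the structural median was -0.21 in the main analysis and -0.23 to -0.16 in the alternatives, and 32 to 34 of 37 structural subunits lay below the median of all genes in each of them.

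**Figure D4:**
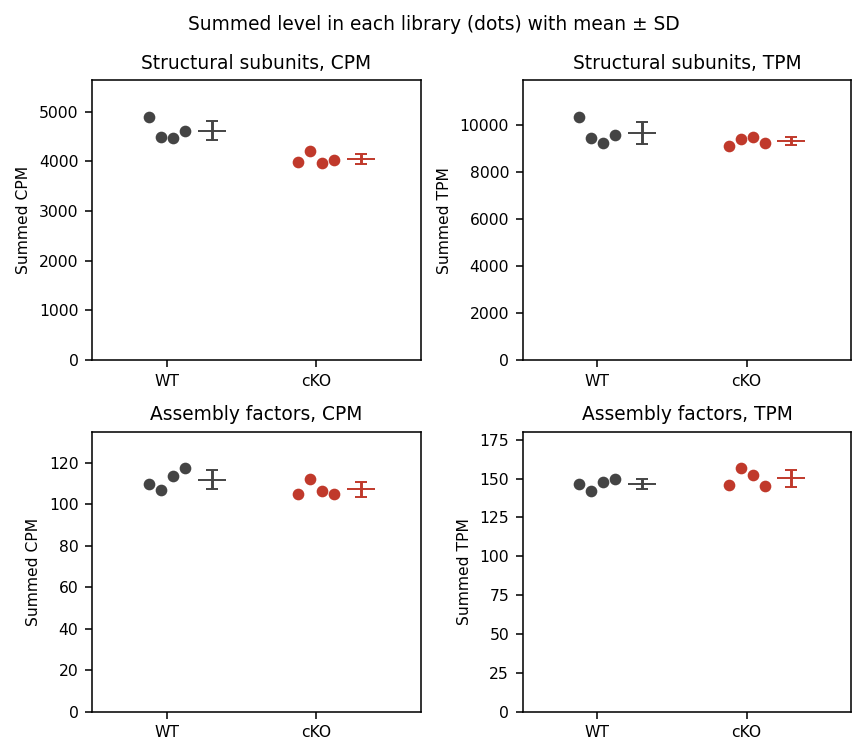
Summed level of the 37 structural subunits and the 8 assembly factors in each library (dots), with mean ± SD (n = 4), in CPM (left) and TPM (right); all axes start at 0. The structural sums do not overlap in CPM (4614 and 4044 on average) and overlap in TPM.

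Most structural transcripts are short, with a median length of 671 bases, against 2213 bases for all genes tested. Among the 2183 tested genes under 1000 bases, 20.2% were lower and 5.22% higher, and the median log2 change was -0.16. The 30 structural subunits under 1000 bases had a median of -0.23, with 18 lower and 1 higher. Among the 409 tested genes that were under 1000 bases and averaged at least 40 CPM, 34.0% were lower and 2.44% higher. Across genes, which are not independent replicates, Spearman's rho between length and log2 change was 0.299 over the 37 structural subunits and 0.201 over all genes. Ndufaf3 and Ndufc2, both under 1000 bases, had log2 changes of -0.79 and 0.24. The part of length in the structural falls and in these changes was not tested.

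**Figure D5:**
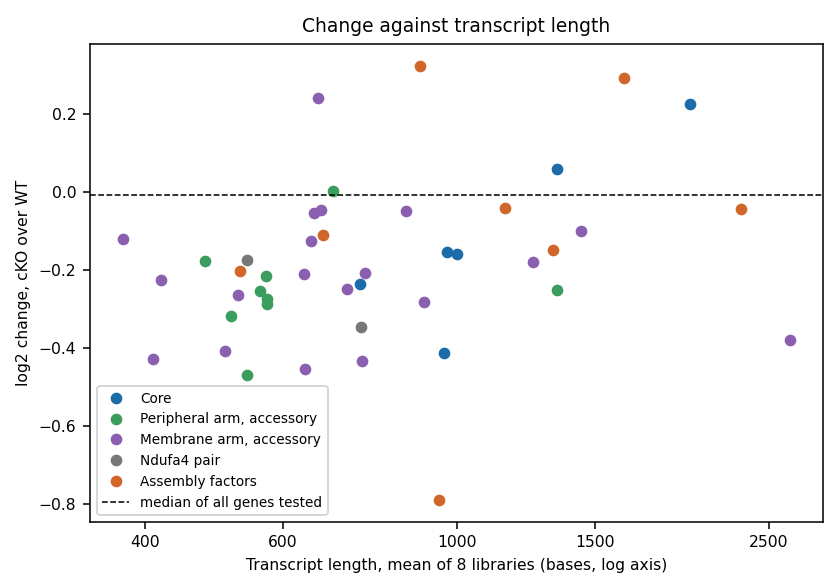
Log2 change in cKO against WT of 44 members (edgeR estimate), each against its transcript length, the mean of the 8 libraries, on a log axis; colours give the role and the dashed line the median of all genes tested (-0.01). Most members under 1000 bases lie below the line, and Ndufaf3 lies lowest.

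Effective length, which RSEM sets from the mix of transcripts it assigns to a gene, was longer in cKO by more than 5% in 6 members and within 5% in the other 39. The 6 included Ndufs1, Ndufv1, Ndufa4l2, Ndufaf4 and Ndufaf6. For Ndufv1 it was 1107 bases in WT and 1219 in cKO on average, and the groups did not overlap. An offset for each gene's effective length in each library turned the log2 change of Ndufv1 to -0.066, without a call, and left 17 structural subunits lower and 0 higher. The gene files do not show which transcripts changed.

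RSEM divides reads that fit several genes, and 35 of the 45 members, Ndufaf3 and Ndufaf4 included, had whole counts in all 8 libraries (within 0.005). The other 10, among them Ndufb4, Ndufs1 and Ndufs3, had counts that were divided with other sequences in at least some libraries, so that their levels are less certain. Of the 27 structural subunits with whole counts throughout, 15 were lower and 1 higher. In RefSeq 14 members overlap another gene record, and without a stated strand setting the reads of such pairs cannot be told apart. Of the overlapping genes looked up afterwards, Rbm10, next to Ndufb11, had a log2 difference of -0.41 (edgeR adjusted p = 0.00467). Shmt2, next to Ndufa4l2, had -0.36 (edgeR adjusted p = 0.00313). The others tested did not pass: Ankrd12 had 0.08, Tmco6 0.03, Ino80dos -0.15 and Rnf113a1 -0.33.

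The members lie on 17 chromosomes. Promoters were found in RefSeq for 39 of 45 members, 32 structural and 7 assembly, as windows from 250 bases before to 50 after the start. Both strands were searched for letters of factors known to act on respiratory genes and for those of CTCF. NRF1 letters GCGCNTGCG were in 9 of 32 structural and 2 of 7 assembly promoters, and in 7.12% of the promoters of 27025 genes. YY1 letters AAGATGGC were in 7 of 32 structural promoters, 1 of 7 assembly promoters and 3.19% of all. ERR letters AAGGTCA were in 3 of 32 structural promoters and 5.38% of all, and ETS letters CCGGAAGT in 1 of 32 and 4.31% of all. CTCF letters AGGNGGCNC were in 3 of 32 structural promoters, 0 of 7 assembly promoters and 9.38% of all. The windows of structural subunits held a median of 58.8% G and C, against 52.8% in all genes. These matches describe letters only.

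In the sequences printed above, that of Ndufb4 has NRF1 letters on the opposite strand with their first base 190, 78 and 21 bases before the start, and ERR letters 55 bases before it. That of Ndufaf4 has NRF1 letters beginning 113 bases before the start, on both strands with an overlap. It also has another form of the CTCF letters, CCAGGGGGC, beginning 53 bases before the start. That form was added to the search after these letters had been read; it was found in the promoters of Ndufaf4, Ndufc1 and 1.20% of all genes. Neither Ndufc2, Ndufv3 nor Ndufaf3 held any of the letters searched.

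Other genes of complex I were described from lists. Of 9 further assembly factors outside the Ndufaf series, 2 were lower and 1 was higher, beside 14.9% and 15.2% of all genes. Ecsit, a partner of Ndufaf1, read 52.3 to 56.1 CPM in WT and 39.1 to 43.2 CPM in cKO, with a log2 change of -0.37 (SE 0.06, edgeR adjusted p = 0.00138). Tmem186 fell by 0.37 as well (edgeR adjusted p = 0.00955). Nubpl, which delivers iron-sulphur clusters to complex I and is named after its value was seen, rose by 0.74 (edgeR adjusted p = 0.0359). That call was lost with no filter, with an offset for effective length, and without WT replicate 1, 2 or 3 or cKO replicate 3 or 4. Ndufab1 had a log2 difference of 0.01 (edgeR adjusted p = 0.924). Of the 7 subunits encoded by mitochondrial DNA, mt-Nd4l fell by 0.54 (edgeR adjusted p = 0.00791), and the rest did not pass in edgeR; mt-Nd5 had -0.46 (edgeR adjusted p = 0.069; DESeq2 adjusted p = 0.0247). Transcripts of the mitochondrial genome made up 8.38 ± 0.992% of counts in WT and 7.62 ± 1.07% in cKO (exact two-sided permutation test, p = 0.314, n = 4 each).

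The other respiratory complexes are given beside complex I. For these counts and those of the lists that follow, 14.9% of all genes were lower and 15.2% higher. In complex III 3 of 9 listed subunits were lower and in complex IV 4 of 10 (2 without WT replicate 1, 2 or 3 or cKO replicate 1 or 4). Uqcrq of complex III had a log2 change of -0.46 and Cox5b of complex IV of -0.36. Uqcr11, at -0.32, and Cox6a1, at -0.31, followed. In ATP synthase 4 of 15 were lower, with Atp5g1 at -0.33 and Atp5j2 at -0.28, and 1 was higher (0 without WT replicate 2, WT replicate 3 or cKO replicate 4). Complex II, succinate dehydrogenase, had 2 of 4 higher, Sdhd at 0.47 and Sdhc at 0.23; Sdhc lost its call without WT replicate 2, 3 or 4 or cKO replicate 4 (adjusted p from 0.0515 to 0.095). With library size alone, 2 subunits of complex III, 1 of complex IV and 0 of ATP synthase were lower, and Cox6a1, Atp5g1 and Atp5j2 lost their calls. On log2(TPM + 1) Uqcr11 did so too. In these settings 3 subunits of ATP synthase and 1 of complex IV were higher, beside 23.2% and 27.2% of all genes. The summed CPM of ATP synthase in cKO was 100.3% of WT, beside 92.9% over all genes tested. Over complexes II to V together, 11 of 38 were lower and 3 higher in the main analysis, with a median log2 change of -0.16. Of 10 regulators of respiratory genes, Gabpa, a subunit of an ETS factor, was higher at 0.25 (edgeR adjusted p = 0.0165; 0.0513 without WT replicate 3), and Esrra, the ERR alpha receptor, had a log2 difference of -0.16 (edgeR adjusted p = 0.0812). Of 10 genes of mitochondrial protein import and folding, 4 were higher (2 without WT replicate 3) and 1 was lower; Tomm20, an import receptor, rose by 1.02 and the chaperonin Hspd1 by 0.46.

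Markers of liver cell types were measured beside these changes, because in bulk tissue fewer cells of a type and less RNA per cell cannot be told apart. Over all genes tested, 14.9% were lower and 15.2% higher. Hepatocyte markers summed to 79547 to 107175 CPM in WT and 91381 to 104839 CPM in cKO. Of these, 5 of 9 were lower, Ttr and Fgb among them, and 1 was higher (0 without WT replicate 3). The count of lower markers was 3 without cKO replicate 3, 3 with library size alone and 1 on log2(TPM + 1). Fgb lost its call in 2 of 20 alternatives. All 11 markers of stellate cells and fibroblasts were higher, with sums of 134 to 154 CPM in WT and 307 to 414 CPM in cKO; Lrat had a log2 change of 1.45 and Dcn of 1.57. Of 6 tested markers of pericytes and smooth muscle 2 were higher, Abcc9 and Kcnj8, with sums of 16.1 to 23.7 and 29.4 to 32.6 CPM. Sums overlapped between genotypes for sinusoidal endothelium (84.4 to 167 and 118 to 184 CPM), macrophages (212 to 319 and 172 to 286 CPM) and red cells (92.7 to 255 and 118 to 231 CPM), with 0 of 6, 0 of 6 and 0 of 5 markers called in edgeR. At an unadjusted p under 0.05 these counts were 1, 0 and 0. DESeq2, limma-voom and both limma fits on TPM each called 1 endothelial marker, Lyve1. Without WT replicate 2, Lyve1 and 4 red cell markers were higher, and without WT replicate 4, 1 macrophage marker. With an offset for effective length, 1 red cell marker, Alas2, was lower. They also overlapped for lymphocytes (3.64 to 7.1 and 5.19 to 8.09 CPM), where 2 of 6 were higher (1 without WT replicate 1, 3 or 4 or cKO replicate 2, 3 or 4), and for cholangiocytes (34.4 to 43.4 and 26.7 to 35.5 CPM), where Epcam was among 2 of 5 that were higher and Spp1 was lower. No listed marker was at 0 in all libraries. The part of these cell types in the complex I changes was not tested.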

How the data were processed

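Per the labels' protocols, Trizol RNA of frozen liver, 8 samples, was turned into TruSeq libraries. STAR 2.5.1, RSEM and mm10 come from the submitters' processing notes. RSEM's version, strandedness and gene models were not given in the sources used here. Per the file headers, the deposited RSEM files hold expected counts (estimated counts, with reads that fit several genes divided), length and effective length, and TPM, which the authors scaled per length and to a fixed total; deposited FPKM was not used. The labels do not say that replicates came from separate mice, so a p-value reflects only spread among the samples, possibly technical. Libraries of each genotype differed by more than counting noise (chi-square over degrees of freedom, 28.4 or higher).

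Expected counts were rounded, filtered with filterByExpr (minimum count 10, minimum total 15) and compared with edgeR 4.0.16 (R 4.3.3): TMM factors (0.964 in WT and 1.037 in cKO on average; exact two-sided permutation test, p = 0.0286, n = 4 each), robust glmQLFit, glmQLFTest and Benjamini-Hochberg adjustment over 15562 genes at 0.05. The SE is derived from the F statistic. The script was tested on simulated counts. Exact tests ran over 70 assignments. limma 3.58.1 and DESeq2 1.42.0 served as alternatives. Members had 53 to 20193 expected counts per library, which sets their counting precision.

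Members and lists were chosen with earlier results of these data known. Named were all assembly factors, Ndufa4, Ndufa4l2, Ctcf and the core subunits but 1, which is counted in its class and not otherwise reported here. Also named were the 4 largest called rises and falls among other structural subunits (1 rise was called). From each other list, the 2 genes of smallest p were named. Promoters were those of the largest called rise and fall in each class. That of Ndufv3 was searched but is not printed. The whole window of Ndufaf3 was searched, but only its stretch up to the Dalrd3 record is printed. Neighbouring genes, Nubpl, Ndufb4's promoter, the second CTCF form and the scaling without the most abundant genes are later additions, made with the data in view. Positions and promoters came from RefSeq on GRCm38.p6, matched by symbol for 45 and 39 members. The listed assembly factor Coa1 was not analysed here, and Dmac1 was taken under its older symbol Tmem261. Python 3.11.15 with matplotlib 3.10.9 drew the figures.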

Additional observations from a re-analysis of the deposited data

Results flagged for a closer look

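Each of 46 groups of 4 libraries of a named member was checked for a library far from the other 3 (Dixon's test on the gap over the range), and 1 was flagged, where chance flags about 1 in 20. Ndufs1 in cKO read 108 CPM in replicate 4 against 81.2 to 85.7 CPM in the others.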

How the results depend on the processing

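Of 20 alternatives, DESeq2-type and upper quartile factors left 19 and 18 structural subunits lower. The limma fits on TPM change the test, unit and filter together (11651 genes tested). With library size alone, 3604 genes were higher and 1318 lower; 1420 were lower without the most abundant genes in the total, 746 on log2(TPM + 1) and 748 on log2(TPM + 0.1). Lower structural subunits then numbered 8, 10, 5 and 5, and 13 with no filter; higher ones were 2, 2, 1 and 1, and 0 with an offset for effective length. Higher assembly factors were 2 with DESeq2, library size alone, without the most abundant genes, on either TPM scale and with no filter, and 0 with the offset. The structural median log2 change was -0.11 with library size alone, -0.14 without the most abundant genes and -0.045 on either TPM scale; that of assembly factors was 0.029, -0.0011, 0.11 on log2(TPM + 0.1) and 0.10 on log2(TPM + 1). Log2 ratios of sums, -0.19 for structural subunits and -0.06 for assembly factors in CPM, were -0.085 and 0.044 with library size alone and -0.052 and 0.036 in TPM. Ctcf had -0.18 and -0.15 on the TPM scales and did not pass. The median of all genes, -0.0065 in the analysis reported, was 0.10 with library size alone, 0.069 without the most abundant genes, 0.12 on log2(TPM + 1), 0.14 on log2(TPM + 0.1), 0.0048 with no filter and 0.0034 with upper quartile factors; the causes of the other differences were not tested.

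Leaving out each library gave 1739 to 2540 higher and 1624 to 2486 lower genes, 12 to 18 lower and 0 to 1 higher structural subunits, 1 lower and 0 to 2 higher assembly factors, structural medians of -0.24 to -0.19, assembly medians of -0.11 to -0.05, log2 ratios of sums of -0.21 to -0.16 and -0.09 to -0.04, Ctcf at -0.46 to -0.39, Ndufab1 at -0.011 to 0.054 and a median of all genes of -0.0085 to 0.0045.

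Signs reversed in members or listed genes that did not pass, and the values given here do not cover all of them. Of the 37 structural subunits, 33 had a negative estimate in the main analysis and 28 with library size alone. The count was 29 without the most abundant genes, 24 on either TPM scale and 35 with the offset. With library size alone Ndufaf7 had 0.063 and Ndufaf5 0.064; without the most abundant genes they had 0.032 and 0.035. On log2(TPM + 0.1) and log2(TPM + 1) respectively Ndufaf7 had 0.14 and 0.12, Ndufaf1 0.037 and 0.036, Ndufaf5 0.16 and 0.12, Ndufaf2 0.079 and 0.075, Ndufv2 0.019 and 0.019, Ndufs3 0.018 and 0.018, and Esrra 0.0076 and 0.0073. Ndufaf5 had 0.022 without cKO replicate 2, Ndufv1 -0.066 with the offset, and Ndufab1 was below 0 without WT replicate 2, WT replicate 3 and cKO replicate 3.

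With the replicate number as a block, 2525 genes were higher and 2419 lower, among them 16 structural subunits lower and 1 higher and 1 assembly factor each way; mt-Nd5 passed (adjusted p = 0.0119). Deviations of same-numbered libraries correlated at 0.113, 0.0514, 0.101 and 0.0729, and 3 of 4 WT libraries correlated best with their own number, a hint of pairing in the data. Since 2 of the 4 correlations were under the limit of 0.1 set for every pair and the labels name no shared litter or day, the main fit has no block.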
